A study of Mus musculus with 57 samples.

Results

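Intercalated cells are the acid-base cells of the renal collecting duct and connecting tubule, and the 7 genes described here carry much of their transport: the transcription factor Foxi1, the V-ATPase subunits Atp6v1b1, Atp6v0d2 and Atp6v1g3, and the anion exchangers Slc4a1, Slc4a9 and Slc26a4. The members were chosen by name, each through the probe set annotated with its symbol alone, and each had 1 such probe set. They are 7 of 19938 genes with a symbol of their own on the arrays. All 7 passed the filter on low values, which left 19302 genes for testing. The study measured mouse kidneys after bilateral ischemia-reperfusion injury (IRI), in which the vessels of each kidney were clamped and released after 28 min, with 57 Affymetrix arrays in 19 groups of male mice. Most arrays held RNA from translating ribosome affinity purification (TRAP), in which ribosomes tagged with eGFP-L10a are pulled from the whole kidney with anti-GFP beads, so that the RNA comes with the ribosomes of the tagged cells. A Cre transgene removed the stop cassette before Rosa26-CAGGS-eGFPL10a and so fixed which lineage carried the tag.

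The nephron line carried six2-CRE, active in nephron progenitors, and gave 3 arrays each for IRI at 24 h, IRI at 4 h, sham surgery at 24 h (all at 8 weeks of age) and no surgery (6 weeks). The interstitial line (foxd1-CRE, a gene that podocytes also express) and the endothelial line (cdh5-CRE) each gave 3 IRI, 3 sham and 3 no-surgery arrays at 6 weeks. The macrophage/monocyte line (lyz2-CRE) gave 3 IRI arrays at 9.5 weeks, 3 sham arrays at 7 weeks and 3 no-surgery arrays at 7 weeks, so age and injury cannot be told apart there. L10a mice without Cre served as a background that the labels ascribe to podocytes and a subset of collecting duct cells (4 IRI and 2 sham arrays at 8 weeks, which the labels call both homozygous and Rosa26-CAGGS-eGFPL10a/+). Wild-type C57BL/6 kidneys, which hold no tag, were put through the same beads (4 IRI and 2 sham arrays at 8 weeks). Whole-kidney total RNA came from L10a heterozygous mice without Cre (3 IRI and 3 sham arrays at 8 weeks). The labels give a mixed C57BL/6 and 129 background for every group, and the 24 h groups were taken 24 h after surgery.

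Intercalated cells come in acid-secreting and base-secreting forms, and Foxi1 is the forkhead factor needed for both. In the acid-secreting (type A) cell the V-ATPase pumps protons into the lumen while the kidney form of Slc4a1 (AE1, also the band 3 protein of red cells) returns bicarbonate to the blood. In base-secreting and related (non-type A) cells, Slc26a4 (pendrin) exchanges bicarbonate for luminal chloride and Slc4a9 (AE4) sits on the basolateral side. Atp6v1b1, Atp6v0d2 and Atp6v1g3 are forms of the pump's B, d and G subunits found in few cell types, and the pump of other cells uses relatives such as Atp6v1b2, Atp6v0d1 and Atp6v1g1. The connecting tubule arises from nephron progenitors and the collecting duct from the ureteric bud, so the nephron line is not built to tag collecting duct cells.

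Promoter sequences of RefSeq (GRCm38.p6, 250 bases before to 50 after the start) were at hand for 4 members: Foxi1, Atp6v1b1, Atp6v1g3 and Slc26a4. The forkhead core TGTTTA was searched on both strands, because Foxi1 is a forkhead factor; its reverse complement reads TAAACA, and no other motif was searched. It occurred in the Atp6v1b1 promoter of the 4, at a site that begins 98 bases before the start, and in 13.4% of 32851 promoters of the same length. A match describes letters and is no evidence of binding, and its absence says only that these letters are not in the window. Shown are the promoters of the member that fell most widely after injury and of the member that rose most at 4 h, 5′ to 3′ on the gene's strand, with the forkhead core in capitals where present. The Atp6v1b1 promoter lies at chr6:83742767-83743066 (plus strand) and the Slc26a4 promoter at chr12:31559935-31560234 (minus strand).
Atp6v1b1: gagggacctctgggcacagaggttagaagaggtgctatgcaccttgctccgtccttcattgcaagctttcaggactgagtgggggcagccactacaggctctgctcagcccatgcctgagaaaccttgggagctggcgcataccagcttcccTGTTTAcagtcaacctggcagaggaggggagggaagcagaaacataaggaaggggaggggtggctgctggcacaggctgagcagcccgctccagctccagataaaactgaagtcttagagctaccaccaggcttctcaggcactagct
Slc26a4: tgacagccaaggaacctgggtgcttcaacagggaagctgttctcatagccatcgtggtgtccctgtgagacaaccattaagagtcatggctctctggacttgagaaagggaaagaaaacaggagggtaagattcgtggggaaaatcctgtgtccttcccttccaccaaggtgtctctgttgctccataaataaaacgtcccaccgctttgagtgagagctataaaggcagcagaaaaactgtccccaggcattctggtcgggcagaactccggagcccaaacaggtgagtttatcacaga

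Levels are log2 intensities, and the same mass of RNA was labelled for every array, so a level is relative to the other RNA of that array. Median intensity was 43.9 to 53.3 in the 6 total RNA arrays and 105.8 to 128.4 in the 51 TRAP arrays, so levels are not compared between these kinds. Rose and fell are used for genes where limma's moderated test, adjusted by Benjamini-Hochberg over the 19302 genes, gave an adjusted p under 0.05. The labels call the samples biological replicates without saying more, and 2 to 4 arrays per group limit the precision. Statements that groups did not overlap describe these arrays only, and the share of all genes without overlap was not counted. Against the C57BL/6 control in sham kidneys, 12 of 12 macrophage markers were higher in the macrophage line and 12 of 12 in the endothelial line, and 10 of 10 endothelial markers were higher in the endothelial line. Interstitial markers were higher for 3 of 10 in the interstitial line, and proximal tubule markers for 2 of 12, with 4 lower, in the nephron line. Over all genes 53.2% differed in either direction in the macrophage line, 55.9% in the endothelial, 42% in the interstitial and 48.3% in the nephron line. Of all arrays, replicate 3 of total RNA after IRI and replicate 2 of the C57BL/6 control after IRI stood apart from their groups, and calls of members described below that turn on them are also given without them. In bulk RNA, fewer cells of a type and less RNA per cell cannot be told apart.

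Injury at 24 h left the 7 genes in no common direction. Atp6v1b1 fell in 6 of 7 sets of arrays, by 3.1-fold to 7.21-fold, and Slc4a1 fell in 3 of 7, while Slc4a9 rose in 2, Atp6v1g3 rose in 2 and fell in 1, Foxi1 rose in 1 and fell in 1, Atp6v0d2 fell in 1 and Slc26a4 passed the test in none. In the nephron line 3 members changed (1 higher, 2 lower), where 28.5% of all genes tested did. In the interstitial line 1 changed (39.1% of all genes), in the endothelial line 1 (42.8%) and in the macrophage line 1 (27.8%). In the L10a background 2 changed (38.4%), in the C57BL/6 control 4 (37.9%), and in total RNA 5, all lower (31.5%). The share of the 7 that changed was thus near or below the background of all genes in every set except the C57BL/6 control, the nephron line and total RNA, and with 7 genes those excesses are a description only.

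**Figure D1:**
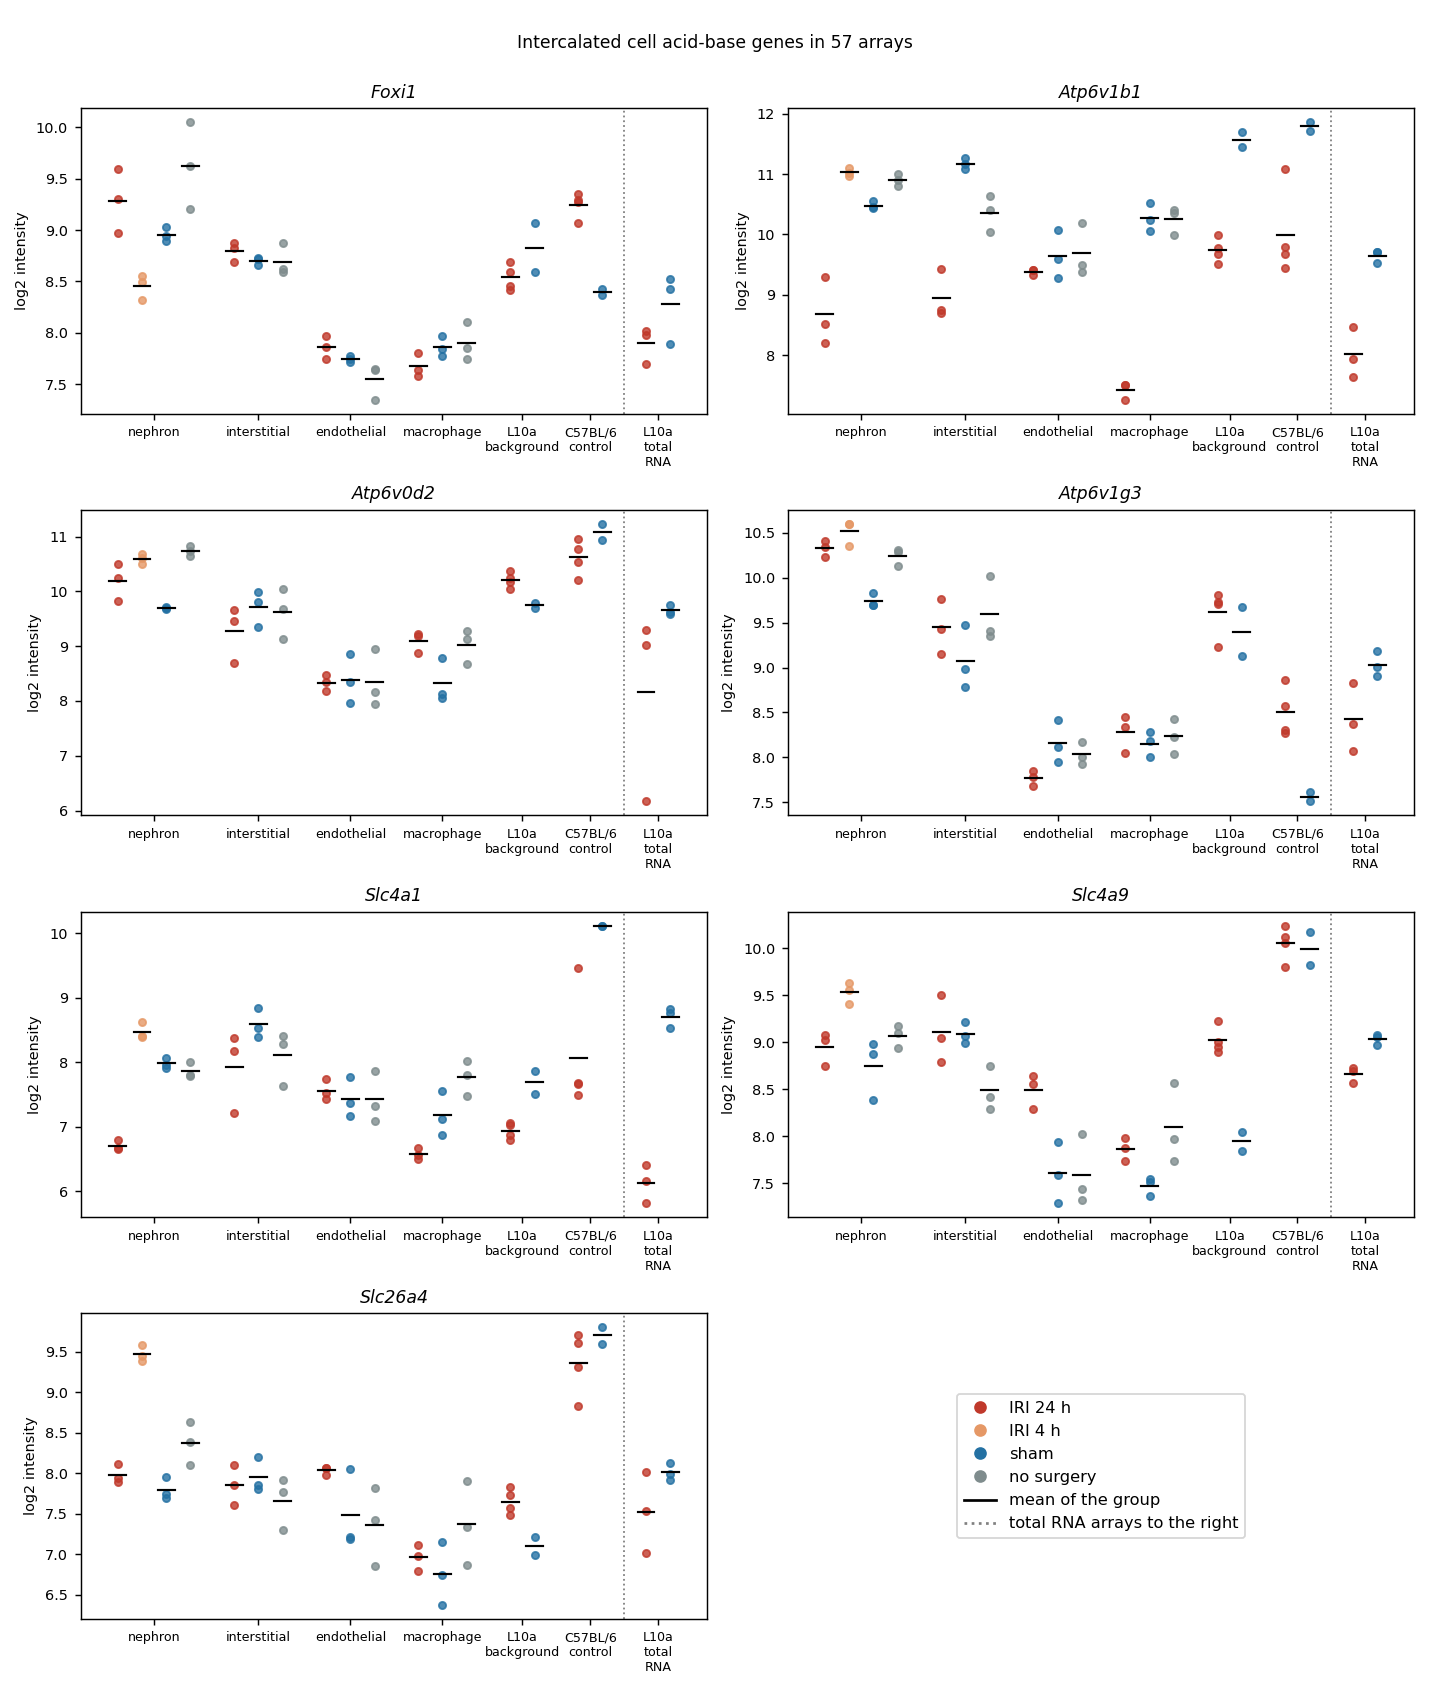
Log2 intensity of the 7 genes in all 57 arrays, 1 point per array and a bar at each group mean, with the IRI groups left of the sham and no-surgery groups in each set. The total RNA arrays, right of the dotted line, are on a scale of their own. Atp6v1b1 at 24 h after IRI sits below every sham array of its set in all sets except the endothelial line. In the nephron line at 4 h it sits above every sham array.

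**Figure D2:**
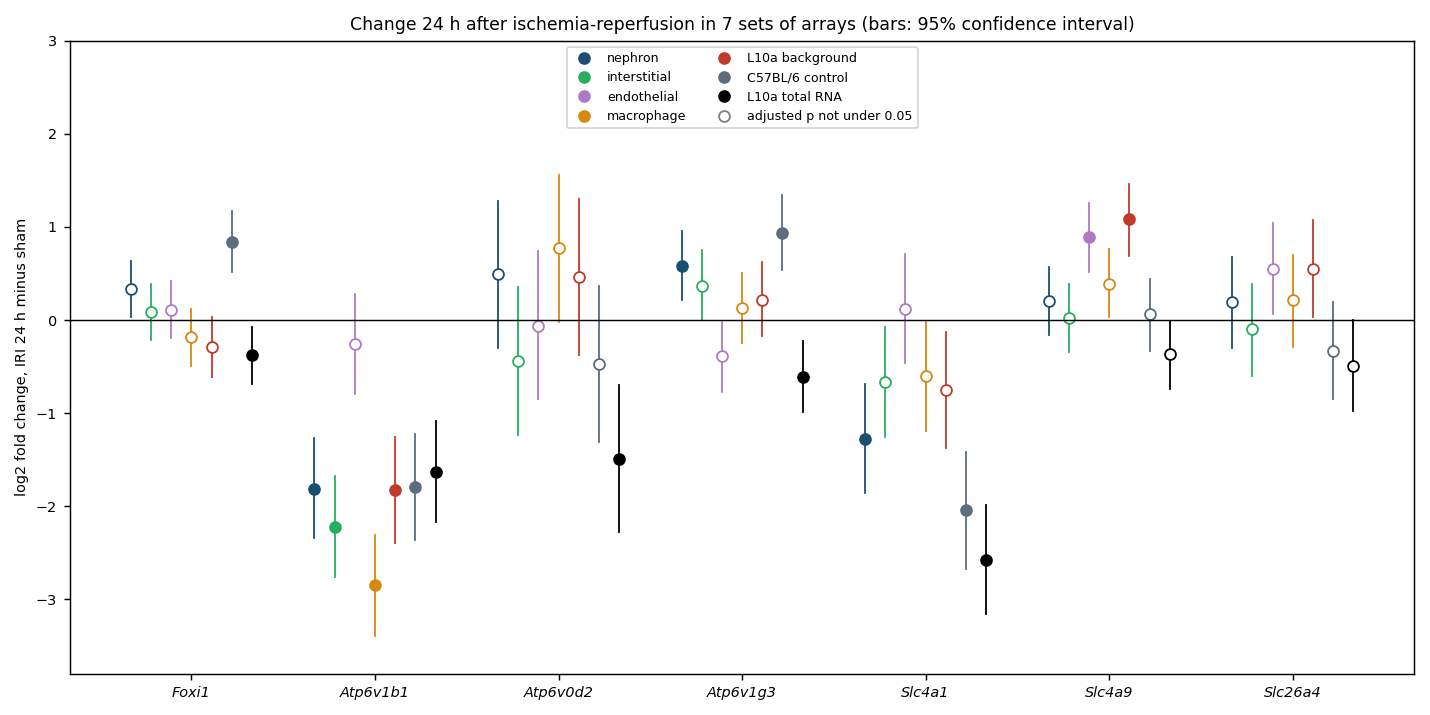
Log2 fold change of IRI over sham at 24 h for each gene in 7 sets of arrays, with 95% confidence intervals; filled points had an adjusted p under 0.05. Atp6v1b1 lies between -1.63 and -2.85 in 6 sets and at -0.26 in the endothelial line, while Atp6v1g3 lies above 0 in 5 of 6 TRAP sets and below 0 in total RNA.

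Atp6v1b1 encodes the kidney and inner ear form of the B subunit of the pump's cytosolic head, and its mutation causes distal renal tubular acidosis with deafness in humans. In the nephron line it read 8.20, 9.30 and 8.52 after IRI, against 10.43, 10.55 and 10.45 in sham arrays, a log2 change of -1.81 ± 0.27 (SE; adjusted p = 8e-07). In the macrophage line it read 7.50, 7.51 and 7.26 after IRI, against 10.06, 10.52 and 10.24 in sham arrays (-2.85 ± 0.27, adjusted p = 1.7e-11). In neither line did the groups overlap, and 7.42 in the macrophage IRI group was the lowest mean of the gene among the 17 TRAP groups. The interstitial line gave 9.42, 8.70 and 8.74 after IRI, against 11.08, 11.26 and 11.17 in sham arrays (-2.22, adjusted p = 7.2e-09). The L10a background gave 9.51 to 9.99 in 4 IRI arrays, against 11.45 and 11.69 in sham arrays (-1.83 ± 0.28, adjusted p = 1.2e-06). The fall was called with and without a Cre, and the L10a response minus the nephron response was -0.03 (95% interval -0.81 to 0.76).

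The untagged C57BL/6 control showed a fall as well, with 9.79, 11.08, 9.45 and 9.67 in IRI arrays, against 11.72 and 11.86 in sham arrays (-1.79, adjusted p = 1.4e-06). Its replicate 2, at 11.08, lies apart from the other IRI arrays, and without it the change was -2.15. Total RNA gave 8.47, 7.63 and 7.94 after IRI, against 9.70, 9.52 and 9.71 in sham arrays (-1.63, adjusted p = 6.6e-06). Endothelial arrays read 9.33, 9.41 and 9.41 after IRI, against 9.27, 10.07 and 9.59 in sham arrays, where the groups overlapped (-0.26 ± 0.27, adjusted p = 0.44). The loss of Atp6v1b1 was called in every alternative setting of the 6 sets, except in total RNA with a replicate block, where its adjusted p was 0.065.

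Atp6v1b2, the B subunit of most cells, fell in 1 of 7 sets. Its log2 change after IRI was 0.16 in the nephron line, 0.27 in the macrophage line, 0.08 in the L10a background, -0.21 in the C57BL/6 control and 0.17 in total RNA, and it passed the test in the interstitial line alone (-0.32 ± 0.12, adjusted p = 0.03). The difference between Atp6v1b1 and Atp6v1b2 was not itself tested. Atp6v0a4, the a-subunit form of intercalated and some other tubule cells, fell with Atp6v1b1 in the nephron line (-0.81 ± 0.28), the interstitial line (-1.08), the macrophage line (-0.82), the C57BL/6 control (-0.86) and total RNA (-0.98).

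**Figure D3:**
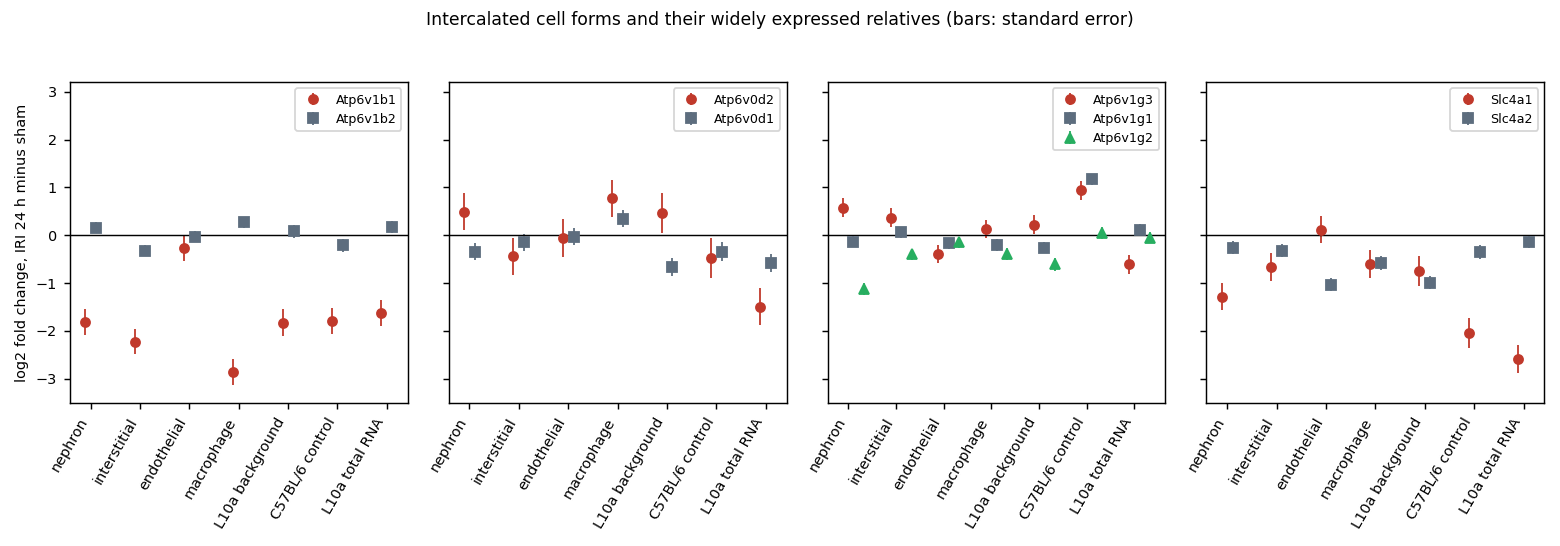
Log2 fold change of IRI over sham at 24 h, with standard errors, for Atp6v1b1, Atp6v0d2, Atp6v1g3 and Slc4a1 beside their relatives in 7 sets of arrays. Atp6v1b1 lies well below Atp6v1b2 in 6 sets, whereas Atp6v0d2 and Atp6v1g3 do not separate from their relatives in this way.

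Atp6v0d2 encodes the d subunit of the membrane sector that intercalated cells and osteoclasts use. Its log2 change after IRI ranged over the 6 TRAP sets from -0.47 in the C57BL/6 control to 0.77 in the macrophage line, and none passed the test over all 57 arrays. In the macrophage line it read 9.22, 9.19 and 8.88 after IRI, against 8.06, 8.79 and 8.13 in sham arrays, groups that did not overlap (adjusted p = 0.15). The same change of 0.77 passed with the 51 TRAP arrays alone (adjusted p = 0.013), without the 2 arrays that stand apart (adjusted p = 0.0087), with the compared groups alone (adjusted p = 0.021) and with the replicate block (adjusted p = 0.018). Total RNA gave 9.02, 9.29 and 6.17 after IRI, against 9.62, 9.58 and 9.76 in sham arrays (-1.49 ± 0.39, adjusted p = 0.003). That fall rests on replicate 3: without it the change was -0.50 with an adjusted p of 0.19, and its spread enters the standard error of the gene in every comparison. Atp6v0d1, the d subunit of other cells, fell in the L10a background (-0.67) and in total RNA (-0.58).

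Atp6v1g3 encodes the G subunit form of the peripheral stalk that is found in kidney. It rose after IRI in the nephron line, where it read 10.34, 10.41 and 10.23, against 9.83, 9.70 and 9.70 in sham arrays (0.58 ± 0.19, adjusted p = 0.014). In the C57BL/6 control it read 8.27 to 8.86 after IRI, against 7.61 and 7.51 in sham arrays (0.94 ± 0.20, adjusted p = 0.00013). In total RNA it fell, with 8.37, 8.83 and 8.07 after IRI, against 9.01, 8.91 and 9.18 in sham arrays (-0.61, adjusted p = 0.01; -0.43 with an adjusted p of 0.11 without IRI replicate 3). Without IRI replicate 2 the nephron change was 0.55 with an adjusted p of 0.051. Nephron arrays without surgery, at 6 weeks of age, read 10.29, 10.13 and 10.31, overlapping those after IRI, and these groups were not compared by a test. In the C57BL/6 control the widely expressed Atp6v1g1 and Atp6v1f rose alongside, by 1.17 and 0.95.

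Foxi1 rose in 1 set and fell in 1 after injury. In the nephron line it read 9.30, 9.59 and 8.97 after IRI, against 8.89, 8.94 and 9.03 in sham arrays, overlapping groups with a change of 0.33 ± 0.15 (adjusted p = 0.1). In the C57BL/6 control it rose, with 9.07, 9.27, 9.35 and 9.29 in IRI arrays, against 8.37 and 8.43 in sham arrays (0.84 ± 0.16, adjusted p = 3.1e-05). In total RNA it read 7.98, 8.02 and 7.70 after IRI, against 8.52, 7.89 and 8.43 in sham arrays, overlapping values that gave -0.38 with an adjusted p of 0.048. That call did not survive 9 of 16 alternative settings, among them the fit without the 2 arrays that stand apart (-0.28, adjusted p = 0.24). The remaining sets changed by -0.29 to 0.11 and passed no test.

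Slc4a1, the basolateral chloride-bicarbonate exchanger of type A cells, fell in the nephron line to 6.68, 6.65 and 6.79 after IRI, against 7.96, 8.07 and 7.92 in sham arrays (-1.28 ± 0.29, adjusted p = 0.00061). In total RNA it fell to 6.41, 5.82 and 6.16 after IRI, against 8.53, 8.77 and 8.82 in sham arrays, a 5.97-fold difference (adjusted p = 4.6e-09). The C57BL/6 control gave 7.49, 9.46, 7.68 and 7.66 after IRI, against 10.12 and 10.11 in sham arrays (-2.04, adjusted p = 6.3e-07; -2.51 without IRI replicate 2, which stands apart at 9.46). In these 3 sets no IRI array reached a sham array. Changes of -0.75 in the L10a background (adjusted p = 0.051), -0.67 in the interstitial line (adjusted p = 0.064) and -0.60 in the macrophage line (adjusted p = 0.13) did not pass, again without overlap. These 3 passed in some alternatives, among them the fit without the 2 arrays that stand apart (adjusted p 0.0056, 0.0082 and 0.023).

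Because Slc4a1 also encodes red-cell band 3, erythroid genes are given beside it. Of 8 measured erythroid markers, 0 changed in the nephron line, where 28.5% of all genes did. The list holds 16, of which 8, the globins among them, were not among the genes tested. Alas2, the heme synthesis enzyme of erythroid cells, rose after IRI in the interstitial line (2.24), the endothelial line (1.64) and the C57BL/6 control (1.49). In total RNA, where Slc4a1 fell most, Alas2 changed by -0.30 (adjusted p = 0.42) and the summed intensity of the 8 markers was 243 to 353 after IRI, against 250 to 306 in sham arrays. In the C57BL/6 control that sum was 661 to 892 after IRI, against 581 to 584 in sham arrays, and in the nephron line it was 534 to 622 after IRI, against 560 to 610 in sham arrays. The part of red cells in the Slc4a1 values was not tested. The widely expressed relative Slc4a2 fell in the endothelial line (-1.03), the macrophage line (-0.58) and the L10a background (-0.99), which are not the sets where Slc4a1 passed.

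Neither exchanger of non-type A cells passed as lower in any set. Slc4a9 rose in the L10a background, where it read 8.90, 9.23, 8.95 and 9.00 after IRI, against 8.05 and 7.84 in sham arrays (2.11-fold, adjusted p = 1.4e-05). It rose in the endothelial line as well, with 8.29, 8.56 and 8.64 after IRI, against 7.29, 7.94 and 7.59 in sham arrays (1.85-fold, adjusted p = 8.2e-05). Neither pair of groups overlapped, and in the other TRAP sets the change was 0.02 to 0.39 with no call. Both sets lay below the untagged C57BL/6 control, whose means were 9.99 in sham and 10.05 in IRI arrays. Means were 7.61 and 8.5 in the endothelial line and 7.94 and 9.02 in the L10a background. Which cells gave the Slc4a9 signal was not tested. In total RNA Slc4a9 read 8.69, 8.73 and 8.57 after IRI, against 9.08, 8.97 and 9.06 in sham arrays, a change of -0.37 without overlap (adjusted p = 0.11; -0.48 with an adjusted p of 0.049 after median centring). Slc26a4 passed in none of 7 sets, with changes from -0.49 in total RNA (adjusted p = 0.12) to 0.55 in the endothelial line (adjusted p = 0.064) and in the L10a background (adjusted p = 0.088). In total RNA it read 7.02, 7.53 and 8.02 after IRI, against 7.99, 7.92 and 8.13 in sham arrays, and without IRI replicate 3 the change was -0.74 and passed (adjusted p = 0.031). Without both arrays that stand apart, the endothelial change of 0.55 passed too (adjusted p = 0.048).

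The response of the members was compared directly between the L10a background and other sets. The L10a response minus the C57BL/6 response was -1.14 ± 0.23 for Foxi1 (adjusted p = 0.00018), 1.02 ± 0.27 for Slc4a9 (adjusted p = 0.0045) and 1.3 ± 0.44 for Slc4a1 (adjusted p = 0.027), so 3 of 7 members differed, where 21.6% of all genes did. The Slc4a1 difference was 1.76 without replicate 2 of the C57BL/6 IRI arrays, and it lost its call in 8 of 22 alternatives. The L10a response minus the nephron response differed for Foxi1 (-0.62 ± 0.22, adjusted p = 0.037) and Slc4a9 (0.88 ± 0.26, adjusted p = 0.014), 2 of 7 against 21.8% of all genes. The Foxi1 call was lost in 9 of 22 alternatives, among them the replicate block (adjusted p = 0.067) and a further quantile normalization (-0.46, adjusted p = 0.15), and the Slc4a9 call in 2 of 22. The Atp6v1g3 difference between the L10a and C57BL/6 responses, -0.72 (adjusted p = 0.059), was -0.80 and passed without the 2 arrays that stand apart (adjusted p = 0.023).

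At 4 h the nephron line held more Slc26a4, Slc4a9 and Atp6v1g3 and less Foxi1 than sham arrays. Slc26a4 read 9.45, 9.38 and 9.58 at 4 h, against 7.69, 7.95 and 7.74 in sham arrays (3.2-fold, adjusted p = 1.3e-06). Slc4a9 rose by 0.78 ± 0.18 (adjusted p = 0.0013) and Atp6v1g3 by 0.77 ± 0.19 (adjusted p = 0.002), and Foxi1 fell to 8.55, 8.49 and 8.32, against 8.89, 8.94 and 9.03 in sham arrays (-0.50, adjusted p = 0.015). Atp6v1b1 (0.55, adjusted p = 0.16), Atp6v0d2 (0.90, adjusted p = 0.11) and Slc4a1 (0.50, adjusted p = 0.26) lay above every sham array without passing the test. The share of all genes that separate in this way was not counted. The 4 changed members compare with 18.4% of all genes. The sham arrays used were taken at 24 h, so injury and the time after surgery cannot be told apart at 4 h. Fitted on these groups alone, 7 of 7 members passed, where 29.3% of all genes did in that fit. Without the 2 arrays that stand apart, the Atp6v0d2 change of 0.90 passed as well (adjusted p = 0.0033). Without surgery, at 6 weeks of age, nephron means were 8.38 for Slc26a4, 9.07 for Slc4a9, 10.24 for Atp6v1g3 and 9.63 for Foxi1. They were 9.47, 9.53, 10.52 and 8.46 at 4 h. In the untagged C57BL/6 control the means of these 4 genes were 9.7, 9.99, 7.56 and 8.4 in sham arrays. In its IRI arrays at 24 h they were 9.37, 10.05, 8.5 and 9.24. For Atp6v1b1, Atp6v0d2 and Slc4a1 the means were 10.9, 10.73 and 7.86 without surgery, and 11.03, 10.59 and 8.48 at 4 h. The 4 h arrays were not tested against those without surgery or against the C57BL/6 control.

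Between 4 h and 24 h, 5 of 7 members changed (27.5% of all genes). At 24 h Atp6v1b1 was 5.12-fold lower than at 4 h (adjusted p = 3.8e-09), Slc4a1 3.42-fold lower (adjusted p = 5.8e-06) and Slc26a4 2.8-fold lower (7.98 at 24 h against 9.47 at 4 h, adjusted p = 5.7e-06). Slc4a9 fell by 0.58 (adjusted p = 0.012), and Foxi1 was 1.78-fold higher (adjusted p = 2.9e-05). Atp6v0d2 (-0.41) and Atp6v1g3 (-0.19) did not pass. The 4 h and 24 h comparisons share the sham arrays. Other intercalated cell genes at 4 h gave 8 higher and 2 lower of 24, where 18.4% of all genes changed. Among them were Spink8 (0.96), Adgrf5 (0.91) and Rhbg (0.86) higher and Bsnd (-1.09) lower, and the median was 0.21 against -0.05 over all genes.

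**Figure D4:**
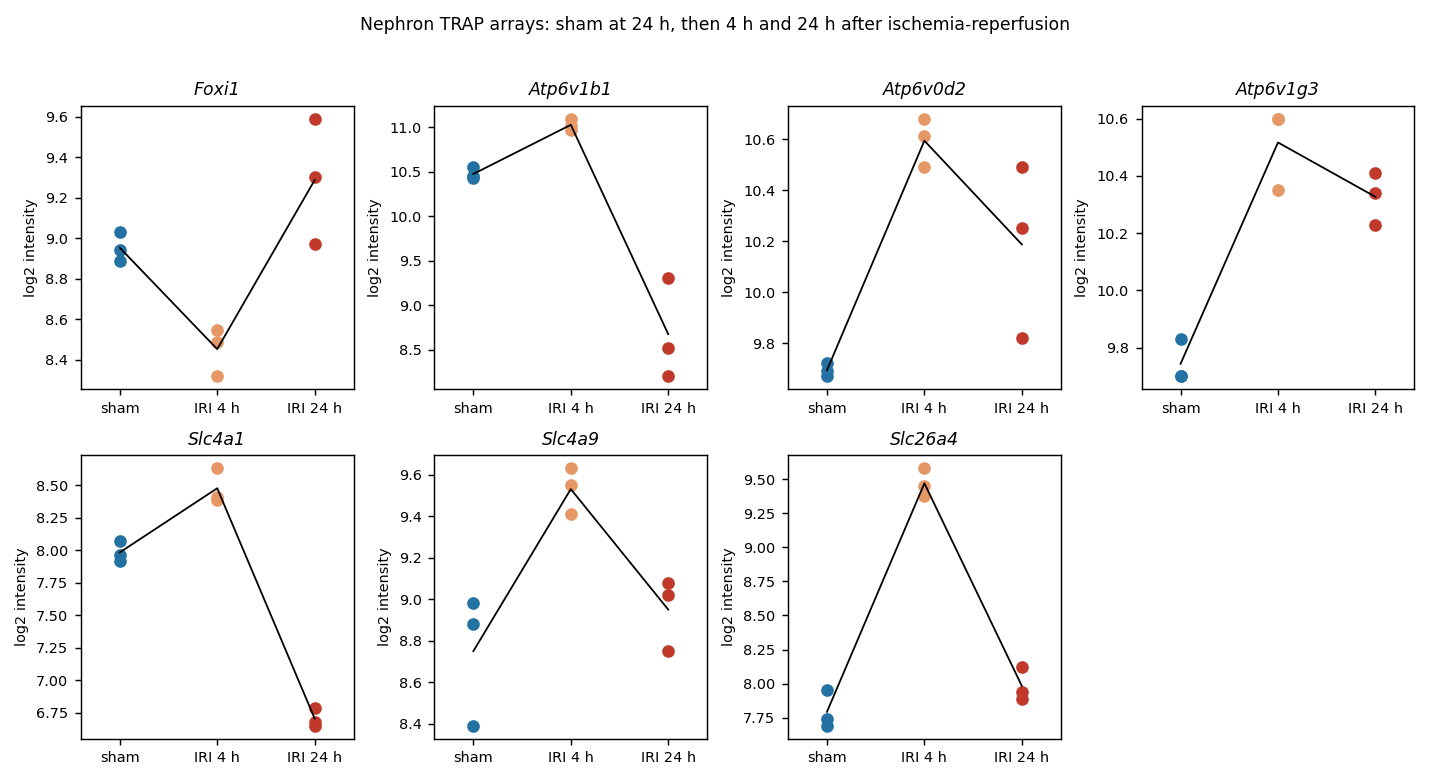
Log2 intensity of the 7 genes in the nephron TRAP arrays of sham kidneys, then 4 h and 24 h after IRI, with 1 point per array and a line through the means. Every gene except Foxi1 has its highest mean at 4 h, though Atp6v1b1, Atp6v0d2 and Slc4a1 did not pass the test there against sham. Atp6v1b1 and Slc4a1 are lowest at 24 h, and Foxi1 is lowest at 4 h.

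Without surgery, the nephron line held more of 6 of the 7 transcripts than the mean of the other 3 lines, where 51% of all genes differed. Foxi1 was 2.99-fold higher (9.63 ± 0.42 in the nephron line, SD, n = 3; adjusted p = 1.2e-14), Atp6v0d2 3.33-fold (adjusted p = 1.2e-05) and Atp6v1g3 3.08-fold (adjusted p = 2.6e-12). Slc4a9 (2.02-fold), Slc26a4 (1.88-fold) and Atp6v1b1 (1.75-fold) were higher by less, and Slc4a1 did not pass (0.09, 95% interval -0.38 to 0.57). The endothelial line was lower for 5 members (40.9% of all genes), the macrophage line for Foxi1 and Atp6v1g3 (37.4%), and the interstitial line was higher for Foxi1 and Atp6v1g3 (32.4%), the Foxi1 call being lost in 8 of 23 alternatives. Each of these contrasts uses the other lines as its base, so they are not independent. In the fit without the 2 arrays that stand apart, Slc4a1 passed as lower in the endothelial line (-0.49, adjusted p = 0.018). It also passed there as higher in the interstitial line (0.43, adjusted p = 0.044), and Atp6v0d2 as lower in the macrophage line (-0.55, adjusted p = 0.018). The macrophage mice were 7 weeks old and those of the other lines 6.

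The untagged control gives the background of the method. In sham kidneys the nephron line was lower than the C57BL/6 control for 5 of 7 members and higher for 2, where 48.3% of all genes differed: Slc4a1 read 7.96, 8.07 and 7.92 in the nephron line, against 10.12 and 10.11 in the control, and Slc26a4 7.69, 7.95 and 7.74 in the nephron line, against 9.60 and 9.80 in the control. The 2 that were higher were Atp6v1g3 (2.18 ± 0.21, adjusted p = 4.6e-12) and Foxi1 (0.56 ± 0.17, adjusted p = 0.0052). The interstitial line differed for 5 members (42% of all genes), the endothelial line for 7 (55.9%) and the macrophage line for 7 (53.2%), and in each the called members other than Atp6v1g3 were lower. The 3 anion exchangers were lower than in untagged kidneys in every tagged line in sham arrays, with differences from -0.91 to -2.94 on the log2 scale. These comparisons were added after the data were seen. Atp6v1b1 in the interstitial line was -0.62 and passed without the 2 arrays that stand apart (adjusted p = 0.032). Sham mice were 6 weeks old in the interstitial and endothelial lines, 7 in the macrophage line and 8 in the control. Line and age cannot be told apart in those 3 lines.

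**Figure D5:**
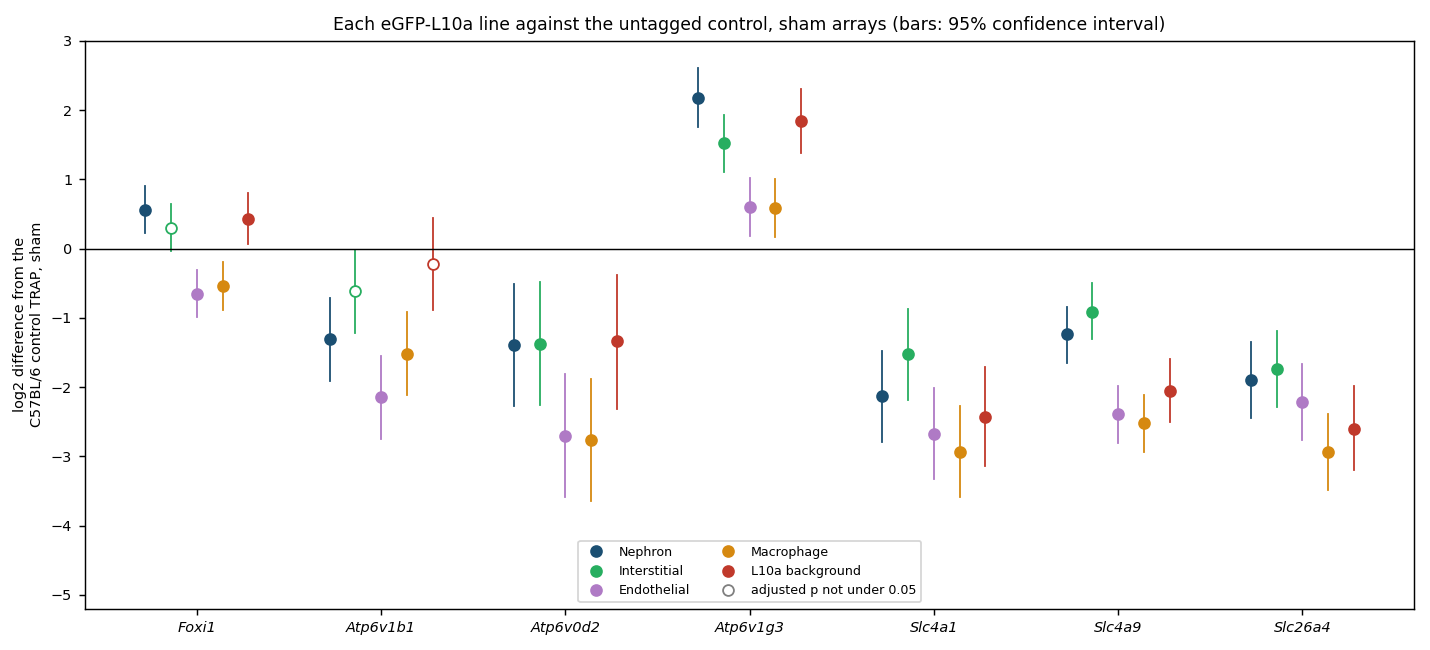
Log2 difference between each eGFP-L10a line (or the L10a background without Cre) and the untagged C57BL/6 control in sham arrays, with 95% confidence intervals; filled points had an adjusted p under 0.05. Slc4a1, Slc4a9 and Slc26a4 lie below 0 in all 5 comparisons and Atp6v1g3 above 0 in all 5.

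The labels ascribe the L10a background in part to collecting duct cells. Principal cell genes, among them the water channel Aqp2 (3.2 ± 0.31) and the vasopressin receptor Avpr2 (4.19), were higher in L10a than in C57BL/6 sham arrays for 15 of 16, with a median difference of 2.63 against -0.07 over all genes, and podocyte markers for 7 of 8. Among the 7 members, 2 were higher and 4 lower (50.7% of all genes). Slc26a4 read 7.21 and 6.99 in L10a, against 9.60 and 9.80 in C57BL/6 sham arrays (6.05-fold lower, adjusted p = 7.6e-10), Slc4a1 was 5.37-fold lower (adjusted p = 1.9e-07), Slc4a9 4.14-fold lower (adjusted p = 1.7e-10) and Atp6v0d2 2.54-fold lower (adjusted p = 0.017, lost in 3 of 14 alternatives). Atp6v1g3 was 3.57-fold higher (adjusted p = 4.6e-09). Atp6v1g1 and Atp6v1f, subunits of every cell, were higher too, by 2.70 and 3.00 on the log2 scale. Foxi1 was higher by 0.43 (adjusted p = 0.049, lost in 6 of 14 alternatives), and Atp6v1b1 did not pass (-0.22, 95% interval -0.88 to 0.44).

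After IRI the same contrast gave 1 member higher and 4 lower (46.4% of all genes). Atp6v1g3 was 2.17-fold higher in L10a, with 9.23 to 9.81, against 8.27 to 8.86 in C57BL/6 arrays. Slc26a4 (3.29-fold), Slc4a1 (2.19-fold), Slc4a9 (2.04-fold) and Foxi1 (1.63-fold) were lower. Atp6v0d2, at -0.41 (adjusted p = 0.34), was -0.55 and passed without the 2 arrays that stand apart (adjusted p = 0.036). The Slc4a1 difference, -1.13, was -0.67 without replicate 2 of the C57BL/6 IRI arrays. Set against the L10a background in sham kidneys, the nephron line was higher for Slc4a9 (0.81) and Slc26a4 (0.69) and lower for Atp6v1b1 (-1.09), with 51.1% of all genes different, and the Slc26a4 call was lost in 6 of 15 alternatives (adjusted p up to 0.17). The interstitial line was higher for Slc4a1, Slc4a9 and Slc26a4 (40% of all genes). The endothelial and macrophage lines were each lower for Foxi1, Atp6v1b1, Atp6v0d2 and Atp6v1g3 (35.1% and 35.7% of all genes). Mice of the interstitial, endothelial and macrophage lines were younger than the L10a mice, so line and age cannot be told apart there.

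Sham arrays were also compared with no-surgery arrays of the same line. In the nephron line Foxi1 read 8.89, 8.94 and 9.03 in sham arrays, against 10.05, 9.21 and 9.62 without surgery (-0.67, adjusted p = 0.0097), 1 of 7 members against 1.74% of all genes. Ages of 8 and 6 weeks go with these groups and cannot be told apart from surgery, and without no-surgery replicate 1 the change was -0.46 (adjusted p = 0.21). Atp6v0d2 changed by -1.04 (adjusted p = 0.22), which passed without the 2 arrays that stand apart (adjusted p = 0.0066). Fitted on the compared groups alone, 4 of 7 members passed in the nephron line, where 5.13% of all genes did. These were Atp6v1b1 (-0.42), Atp6v0d2 (-1.04), Atp6v1g3 (-0.5) and Slc26a4 (-0.58), all lower in sham arrays, while Foxi1 did not pass in that fit (adjusted p = 0.067). In the interstitial line Atp6v1b1 (0.81, adjusted p = 0.044) and Slc4a9 (0.60, adjusted p = 0.027) were higher in sham arrays (10.1% of all genes), calls lost in 7 and 5 of 17 alternatives. Atp6v1g3 in that line was -0.52 and passed without the 2 arrays that stand apart (adjusted p = 0.036). In the endothelial line 0 of 7 members passed with limma, where 0.85% of all genes did, and 0 of 7 had an unadjusted p under 0.05, where 5.11% of all genes did. In the macrophage line 0 of 7 passed, where 1.58% of all genes did, and 3 of 7 had an unadjusted p under 0.05, where 10.3% of all genes did. Of these 3, Slc4a9 moved furthest in units of its error (-0.62 ± 0.18, adjusted p = 0.071).

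Ordered over the 17 TRAP groups, the C57BL/6 control sham arrays had the highest mean of Atp6v1b1 (11.79), Atp6v0d2 (11.09), Slc4a1 (10.12) and Slc26a4 (9.70), and the C57BL/6 IRI arrays that of Slc4a9 (10.05). Foxi1 was highest in the nephron line without surgery (9.63) and lowest in the endothelial line without surgery (7.55). Atp6v1g3 ran from 10.52 in the nephron line at 4 h down to 7.56 in C57BL/6 sham arrays. The lowest means of Slc4a9 (7.47), Slc26a4 (6.76) and Atp6v0d2 (8.33) were those of macrophage sham arrays. Neighbours in the order mostly overlapped: for Slc4a9 15 of 16 neighbouring pairs of groups shared part of their range, for Foxi1 and Slc4a1 14 of 16, for Atp6v0d2, Atp6v1g3 and Slc26a4 13 of 16, and for Atp6v1b1 12 of 16. For Atp6v1b1 the 4 pairs without overlap lay below the C57BL/6 sham arrays (11.72 and 11.86), below the L10a sham arrays (11.45 and 11.69), between the nephron arrays without surgery (lowest 10.81) and the nephron sham arrays (highest 10.55), and above the macrophage IRI arrays.

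Other genes of intercalated cells gave a frame for the 7. Of 24 measured, 2 rose and 8 fell after IRI in the nephron line, 2 and 11 in the interstitial line, 5 and 4 in the endothelial line and 2 and 11 in the macrophage line. In the L10a background 3 rose and 8 fell, and 0 rose and 13 fell in the C57BL/6 control and likewise in total RNA, where the list's median was -0.48 against 0.05 over all genes. Over all genes 28.5%, 39.1%, 42.8%, 27.8%, 38.4%, 37.9% and 31.5% changed, in the same order of sets, and the list's share lay below that in the endothelial line. The ammonia transporter Rhcg fell in 6 sets, among them the nephron line (-1.86), the L10a background (-2.67) and total RNA (-1.93), and read -0.68 (adjusted p = 0.06) in the endothelial line. Bsnd, the chloride channel subunit barttin, fell in all 7, with -2.53 in the nephron line and -1.39 in the endothelial line. The summed intensity of thick ascending limb and distal convoluted tubule markers in the nephron line was 18939 to 19927 after IRI, against 28781 to 31407 in sham arrays. The part of such segments in the Bsnd fall was not tested. The 2-oxoglutarate receptor Oxgr1, a gene of the non-type A cells, fell in all 7, with -1.55 in the nephron line and -2.03 in total RNA. Rhcg, Bsnd and Oxgr1 are examples of genes that fell, and the genes that rose are counted above but not named.

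Of 21 further V-ATPase subunits and accessory proteins, 1 rose and 8 fell in the nephron line, 0 and 8 in the interstitial line, 1 and 3 in the endothelial line, 2 and 2 in the macrophage line, 2 and 7 in the L10a background, 6 and 6 in the C57BL/6 control and 0 and 8 in total RNA. Medians lay between -0.17 and 0.10. Over all genes 28.5%, 39.1%, 42.8%, 27.8%, 38.4%, 37.9% and 31.5% changed, in the same order of sets. The V-ATPase share lay below that of all genes in the interstitial, endothelial and macrophage lines. Atp6v1a, the catalytic A subunit, fell in the interstitial line (-1.10), in total RNA (-1.03) and in the nephron line (-0.74). Principal cell genes, the neighbours of intercalated cells, fell for 13 of 16 in the macrophage line, 12 of 16 in the L10a background and 7 of 16 in the nephron line. Their summed intensity in the L10a background was 26829 to 32688 after IRI, against 64898 to 65141 in sham arrays, while the summed intensity of the 24 other intercalated cell genes was 24201 to 25681 after IRI, against 30304 to 31512 in sham arrays. In the macrophage line, where Atp6v1b1 fell most, thick ascending limb and distal convoluted tubule markers fell for 7 of 10 and proximal tubule markers for 9 of 12, and the part of such carried RNA in the Atp6v1b1 fall was not tested. Acid-base genes of other segments fell for 7 of 12 in the nephron line and 9 of 12 in total RNA.

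Over the 17 TRAP groups the members did not share a single pattern. The group means of Slc4a9 and Slc26a4 correlated at r = 0.90, Atp6v0d2 and Slc4a9 at 0.85, and Slc4a1 and Atp6v1b1 at 0.74, whereas Slc4a1 and Atp6v1g3 gave -0.12 and Atp6v1b1 and Atp6v1g3 0.11. These points share lines, control arrays and carried RNA and are a description only. The genes most like the scaled mean of the 7 over those groups were Slc12a3, Pamr1 and Klk1b5 (r = 0.97 each), then Umod (0.96) and Kif21a, Abcd3, Cyp2j6, Pkp4, Ptprf and Kng2 (0.95 each). For Atp6v1b1 alone the most alike was Slc12a1 (0.95), for Slc4a9 Cwh43 (0.96), for Slc26a4 Malrd1 (0.95), for Foxi1 Fa2h (0.92), for Atp6v0d2 Met (0.94), for Atp6v1g3 Spint2 (0.95) and for Slc4a1 Adamts15 (0.91).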

How the data were processed

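The deposited values are linear probe set intensities, made by the authors with Affymetrix Expression Console 1.3.1 and RMA, per the submitters' processing notes; how the total RNA and TRAP arrays were normalized together is not given in the sources used here. The intensity values were taken to log2. Of 35556 probe sets, 21789 carry 1 symbol, 1621 several and 12146 none; genes with several probe sets took that with the highest mean. Genes above 5 (log2) in at least 3 arrays were kept (19302). limma 3.58.1 in R 4.3.3 fitted 1 coefficient per group over all 57 arrays (38 residual degrees of freedom), with eBayes and Benjamini-Hochberg adjustment, for 29 comparisons, 4 of them added later. The procedure was tested on simulated data. Replicate numbers in the titles were not used to pair samples in the fit reported: 4 of 22 same-numbered pairs had deviations correlated above 0.1. No 2 arrays held identical values. Promoters came from RefSeq tables. Figures used matplotlib 3.10.9. Genes named are the 7 members, 5 relatives, a panel for other cell types, up to 4 called genes with the largest change per list and comparison, and the most alike genes; members and lists were chosen with earlier results of these data known. Bsnd, Rhcg, Oxgr1, Atp6v0a4 and Atp6v1a are also given in sets where they were not among those 4, and Rhbg at 4 h likewise. Alternatives tried were other scaling, filters, smaller sets of arrays, an intensity trend, a replicate block and leaving out each array.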

Additional observations from a re-analysis of the deposited data

Results flagged for a closer look

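Slc4a1 in replicate 2 of the C57BL/6 control after IRI read 9.46, far from the other 3 arrays of its group at 7.49 to 7.68, with a gap of 0.90 of the range. Of 14 sets of 4 values tested in this way 1 stood out, and chance marks about 1 in 20 groups. Without that array the Slc4a1 fall in the C57BL/6 control was -2.51.

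The response to IRI differed between sets by a test of the difference itself for 5 results. The L10a background response minus the C57BL/6 control response was -1.14 for Foxi1, 1.3 for Slc4a1 and 1.02 for Slc4a9. The L10a background response minus the nephron response was -0.62 for Foxi1 and 0.88 for Slc4a9. These calls were lost in 8 of 22 alternatives for Slc4a1 (L10a minus C57BL/6), in 9 of 22 for Foxi1 and 2 of 22 for Slc4a9 (L10a minus nephron), and in 1 of 22 for Slc4a9 (L10a minus C57BL/6).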

How the results depend on the processing

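Of 3542 alternative values for 203 results on single members, 3345 kept their side of the threshold, 101 lost their call and 96 gained one. Of the 3345, 3271 kept their sign and 74 changed it without a call on either side, 0 called values changed sign, and the cause of the changes was not tested. Counts of members called after IRI at 24 h moved as follows. In the interstitial line the count was 1 and became 2 with quantile normalization applied again, with median centring, with 45 arrays and without the 2 arrays that stand apart (1 to 2 leaving out 1 array). In the endothelial line it was 1 and became 2 with quantile normalization applied again, with the compared groups alone and without those 2 arrays (1 to 2). In the macrophage line it was 1 and became 4 with the compared groups alone and with a replicate block, 3 without those 2 arrays and 2 with 51 or 45 arrays. In the L10a background it was 2 and became 5 with the compared groups alone and with the block. In total RNA it was 5 and became 2 with the compared groups alone, 1 with the replicate block and 3 without those 2 arrays (3 to 5). At 4 h it was 4 and became 7 with the compared groups alone and with the block.

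Without surgery, the interstitial line's count of 2 became 1 with median centring, with the compared groups alone and with the block (1 to 2), and the macrophage line's 2 ranged from 2 to 4. For sham against no surgery, the nephron count of 1 became 4 with the compared groups alone, 3 with the block and 2 with 51 arrays or without those 2 arrays (0 to 1). The interstitial count of 2 became 1 with median centring and 0 with the compared groups alone (0 to 2), and the macrophage count of 0 reached 1. The L10a and C57BL/6 response difference ranged from 1 to 4, and that of L10a and nephron became 1 with quantile normalization applied again (0 to 2). Same-numbered samples had correlations of -0.24 to 0.31, so their numbers were not used to pair them in the fit reported. With so few arrays per group these values cannot show that the samples were unpaired.

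Over all genes, total RNA gave 6072 calls, 689 with the compared groups alone and 47 with the block. The C57BL/6 control gave 7321 and 3067 with the block, and the nephron line at 4 h 3545 and 5557 with the compared groups alone. For sham against no surgery, counts with the compared groups alone, with the block, with 51 arrays and without the 2 arrays were 973, 907, 721 and 729 in the nephron line (335 in the fit reported), and 350, 698, 3154 and 3350 in the interstitial line (1945). In the macrophage line they were 26, 0, 523 and 612 (305), and in the endothelial line 20 and 1 with the first 2 settings (164). Leaving out 1 array moved these to 124 in the nephron, 782 in the interstitial, 61 in the endothelial and 46 or 521 in the macrophage line. The L10a and nephron response difference gave 4209 and 6581 with the compared groups alone, and 2432 without L10a sham replicate 1, which also moved the nephron line minus L10a from 9867 to 6508.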
